A study of Chlamydomonas reinhardtii with 27 samples.

Results

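Cells of the green alga Chlamydomonas reinhardtii that had been in 200 mM NaCl for 48 h were set against control cells kept without NaCl. The comparison used 6 of the 27 libraries of the series, 3 from 48 h and 3 from control, and covered all 19267 identifiers of the count table. The strain in both groups was GY-D55, a wild type obtained from a supplier and grown to mid-logarithmic phase in BG-11 with alternating light and dark. The 48 h cultures received NaCl in added medium, and the controls were cultures without NaCl. Neither the sampling time of the controls nor whether they received medium without NaCl is given in the sources used here. Salt, added medium, culture age and time of day therefore cannot be told apart in the differences from control below. In the differences between salt times, time in salt and culture age cannot be told apart. RNA was bound to poly-T beads and sequenced. The labels name 3 samples per group without saying whether they were separate cultures, so p-values measure the spread between samples. In the test of genes that spread was estimated over all 27 libraries of the series. The total count was 19506506, 19513018 and 18749997 in the 48 h libraries and 22528201, 18771094 and 17126549 in the control libraries. Replicates at 48 h were closer to each other, with a biological coefficient of variation of 0.125 against 0.299 in control. In RNA from a whole culture, fewer cells that express a gene and less RNA per cell cannot be told apart.

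As background, NaCl draws water from an algal cell and brings in sodium ions. Chlamydomonas species make glycerol, an uncharged solute that holds water in the cell, from triose phosphates and stored starch. Photosystem II splits water with the help of the oxygen-evolving complex, photosystem I passes the electrons on, and light-harvesting proteins feed both. Active oxygen that leaks from this chain is removed by catalase, peroxidases and transferases that use glutathione.

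Expression is given as CPM, the counts of a gene per 1000000 counts of the library, after TMM scaling. A gene was called differentially expressed (a DEG) at a Benjamini-Hochberg adjusted p below 0.05 in edgeR's quasi-likelihood test, and a log2 fold change is 48 h over control. All adjusted p-values below come from this test, over 16443 genes with enough counts. At 48 h, 4431 genes were upregulated and 3995 downregulated, which are 26.9% and 24.3% of the genes tested. Counting both directions, 51.2% were DEGs, and 56.5% had an unadjusted p below 0.05. In 32.8% of the genes every 48 h library lay above every control library, and in 29.9% below. The 2 directions were almost equal in size as well, with a median log2 fold change of 1.32 in the upregulated and −1.34 in the downregulated genes. Of the DEGs, 3014 were upregulated and 2682 downregulated by more than 1 on the log2 scale (18.3% and 16.3% of the genes tested), and 239 and 229 by more than 4. The upregulated genes held 22.4% to 23.7% of the counts of the 48 h libraries and 7.62% to 8.76% of those of the control libraries. The downregulated genes held 20.4% to 21.5% at 48 h and 41.5% to 47.1% in control. These shares describe genes chosen by the same contrast. With total counts as the only scaling, 5605 genes were called up and 2299 down, so that 70.9% of the calls were upward in place of 52.6%, and the median log2 fold change of all genes was 0.38 in place of 0.03.

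**Figure D1:**
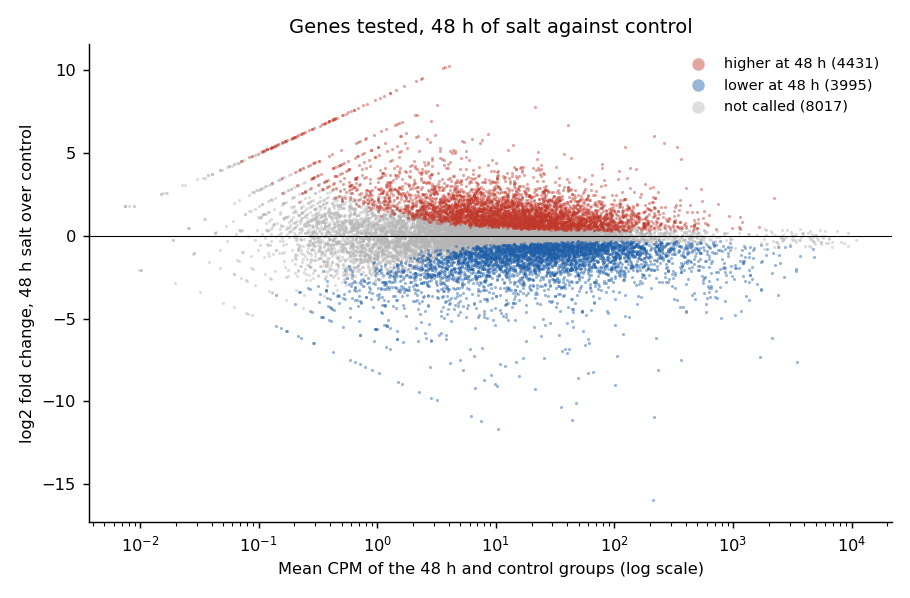
Each of the 16443 tested genes by its mean CPM over both groups (log scale) and its log2 fold change at 48 h over control. The 4431 red points are upregulated and the 3995 blue points downregulated, and the slanted rows at the left edge are genes with no or few counts in one group, whose fitted fold change is not a measured size.

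With TMM scaling, the direction of the calls changed with the level of expression. The split by level was made with this scaling only. Of the 1645 genes highest in mean CPM over the 6 libraries (91.7 CPM or more), 44.98% were downregulated and 22.5% upregulated. Of the 1644 genes between 4.14 and 6.99 CPM, 18.8% were downregulated and 31.8% upregulated. Of the 1645 lowest genes, under 0.833 CPM, 5.65% and 12.6% passed the test.

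The study names 41 genes, most of them for their changes in these same samples, so their counts are not independent evidence. Of these, 20 were upregulated, 12 downregulated and 9 not called at 48 h, beside 26.9% and 24.3% of all genes. The plot of the named genes by library shows that the 48 h points of most of them lay close together and apart from the control points. Among these 41 genes, the largest fall was in a gene of photosystem I and the largest rise in a gene of glycerol synthesis.

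**Figure D2:**
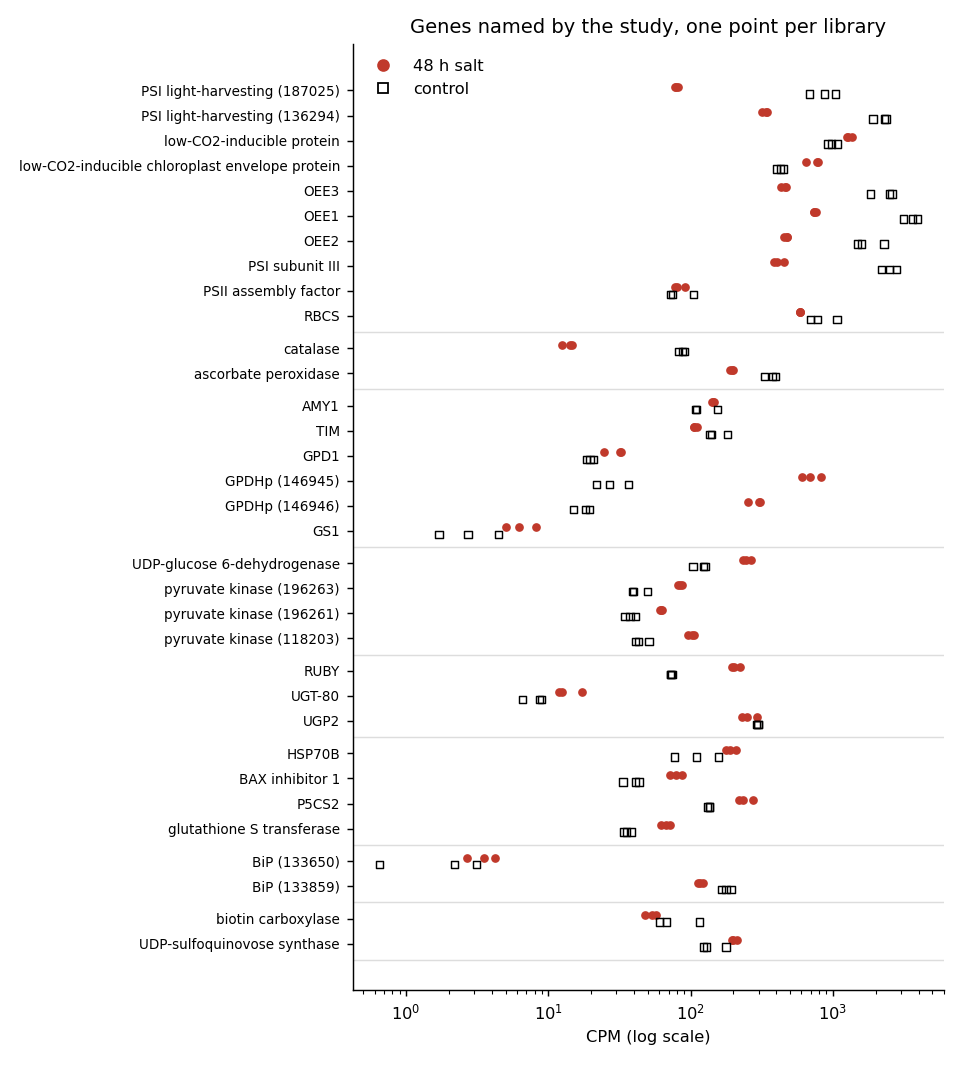
CPM (log scale) of genes named by the study, with 1 point per library, filled circles for 48 h salt and open squares for control. Genes are grouped, top to bottom, into photosynthesis, antioxidant enzymes, glycerol and starch, other carbohydrate enzymes, cell wall sugars, stress proteins, endoplasmic reticulum chaperones and lipid enzymes. The circles of OEE1 lie at 731 to 756 CPM, all below its squares at 3137 to 3932 CPM, and those of the GPDHp gene with the higher circles at 603 to 823 CPM, all above its squares at 21.8 to 36.4 CPM.

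Of 10 photosynthesis genes, 7 were downregulated, 2 were upregulated and 1 was not called, with a median log2 fold change of −2.10 against 0.03 over all genes. The steepest fall was in CHLREDRAFT_187025, which encodes a chlorophyll a/b protein of the photosystem I antenna. It had 78.3, 81.0 and 77.1 CPM at 48 h and 874, 680 and 1047 CPM in control, a log2 fold change of −3.46 (SE 0.22, adjusted p = 3.69e-13). Every control library was several times above every 48 h library. A second photosystem I antenna gene, CHLREDRAFT_136294, had 340, 319 and 346 CPM at 48 h and 2314, 1911 and 2359 CPM in control (log2 fold change −2.71). Photosystem I subunit III, CHLREDRAFT_130914, which docks the electron donor, had 406, 384 and 454 CPM at 48 h and 2800, 2189 and 2505 CPM in control (log2 fold change −2.59).

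Genes of the 3 oxygen-evolving enhancer proteins, which shield the water-splitting centre of photosystem II, were downregulated as well. OEE1, CHLREDRAFT_130316, had 731, 734 and 756 CPM at 48 h and 3612, 3137 and 3932 CPM in control (log2 fold change −2.26, SE 0.15, adjusted p = 1.84e-12). OEE2, CHLREDRAFT_33411, had 453, 474 and 475 CPM at 48 h and 1579, 1483 and 2286 CPM in control (−1.93). OEE3, CHLREDRAFT_153656, had 428, 471 and 462 CPM at 48 h and 2501, 1834 and 2603 CPM in control (−2.35). In all 3 genes the 48 h libraries differed from each other by less than the gap to control. The fall did not extend to the whole group. The assembly factor of photosystem II, CHLREDRAFT_112806, had 79.6, 90.6 and 77.1 CPM at 48 h and 74.7, 72.4 and 105 CPM in control, and the groups overlapped (log2 fold change −0.03, adjusted p = 0.918).

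Genes of carbon uptake and fixation changed by less. RBCS, CHLREDRAFT_82986, the small subunit of the enzyme that fixes CO2, had 585, 587 and 587 CPM at 48 h and 775, 695 and 1067 CPM in control (log2 fold change −0.53, adjusted p = 0.00555). Its call rested on control replicate 3: without it the log2 fold change was −0.30 (adjusted p = 0.124), and with total counts as the scaling −0.19 (adjusted p = 0.381). The 2 genes of proteins induced by low CO2 were upregulated. The one in the chloroplast envelope, CHLREDRAFT_189430, had 777, 643 and 787 CPM at 48 h and 449, 403 and 430 CPM in control (0.78, adjusted p = 0.0153). The other, CHLREDRAFT_148921, had 1268, 1260 and 1365 CPM at 48 h and 972, 924 and 1083 CPM in control, with a log2 fold change of 0.39 (adjusted p = 0.0322). This last call was lost when any library but control replicate 3 was left out (adjusted p 0.0514 to 0.0872) and in DESeq2 (adjusted p = 0.0686).

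The 2 antioxidant enzymes named by the study were both downregulated. Catalase, CHLREDRAFT_190083, which breaks down hydrogen peroxide, had 12.4, 14.2 and 14.7 CPM at 48 h and 90.2, 81.9 and 87.9 CPM in control, 6.29-fold lower at 48 h (log2 fold change −2.65, SE 0.195, adjusted p = 9.07e-12). Ascorbate peroxidase, CHLREDRAFT_192806, which reduces hydrogen peroxide with ascorbate, had 197, 190 and 194 CPM at 48 h and 394, 331 and 377 CPM in control (−0.92). The glutathione S transferase CHLREDRAFT_195543, which attaches glutathione to reactive compounds, went the other way, with 71.6, 66.7 and 62.0 CPM at 48 h and 35.2, 33.6 and 38.5 CPM in control (0.90, adjusted p = 1.3e-06).

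Glycerol synthesis held the largest increases among the named genes. Of 6 genes of glycerol and starch, 4 were upregulated, 1 was downregulated and 1 was not called. Glycerol-3-phosphate dehydrogenase makes the precursor of glycerol from a triose phosphate. Its gene CHLREDRAFT_146945 had 686, 603 and 823 CPM at 48 h and 36.4, 27.004 and 21.8 CPM in control, 24.8-fold higher (log2 fold change 4.63, SE 0.23, adjusted p = 3.95e-15). A second gene of the same enzyme, CHLREDRAFT_146946, had 305, 300 and 251 CPM at 48 h and 18.3, 19.4 and 14.9 CPM in control, 16.2-fold higher (4.02, SE 0.30, adjusted p = 9.02e-12). The paper lists CHLREDRAFT_146946 as a fragment, and it lies near CHLREDRAFT_146945 on chromosome 1. How reads that fit both genes were counted is not given in the sources used here, so the split between them is uncertain. Another, GPD1 (CHLREDRAFT_94229), rose by a smaller amount, with 31.9, 32.6 and 24.5 CPM at 48 h and 19.6, 18.4 and 20.7 CPM in control (0.60, adjusted p = 0.00242).

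The next step, the removal of phosphate, is assigned to GS1, a glycerol-3-phosphatase homolog (CHLREDRAFT_184987). It was low in both groups, with 8.23, 6.20 and 5.00 CPM at 48 h and 1.71, 2.72 and 4.44 CPM in control (log2 fold change 1.14, adjusted p = 0.00331). Triosephosphate isomerase, TIM (CHLREDRAFT_26265), which interconverts the triose phosphates, had 105, 106 and 110 CPM at 48 h and 182, 137 and 140 CPM in control (−0.51, adjusted p = 0.00959). Without control replicate 1 its log2 fold change was −0.33 (adjusted p = 0.127), and with total counts as the scaling −0.15 (adjusted p = 0.253). AMY1 (CHLREDRAFT_173725), an alpha-amylase that cuts starch, had 142, 146 and 141 CPM at 48 h and 109, 109 and 155 CPM in control, and was not called (adjusted p = 0.303). Without control replicate 3 it was (log2 fold change 0.42, adjusted p = 0.0399).

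The 4 other carbohydrate enzymes were all upregulated. The 3 pyruvate kinase genes, whose product catalyses the last step of glycolysis, had log2 fold changes of 1.17 (CHLREDRAFT_118203), 0.98 (CHLREDRAFT_196263) and 0.71 (CHLREDRAFT_196261). CHLREDRAFT_118203 had 106, 102 and 96.1 CPM at 48 h and 43.0, 41.1 and 50.9 CPM in control. UDP-glucose 6-dehydrogenase (CHLREDRAFT_185081), which makes a sugar acid used in cell wall polymers, had 247, 233 and 265 CPM at 48 h and 123, 104 and 126 CPM in control (1.08, adjusted p = 3.02e-07). Among 3 genes grouped with cell wall sugars, RUBY (CHLREDRAFT_196816), a galactose oxidase homolog, changed most. It had 195, 202 and 223 CPM at 48 h and 74.0, 72.7 and 72.5 CPM in control (log2 fold change 1.498, SE 0.14, adjusted p = 1.6e-09). The glucosyltransferase UGT-80 (CHLREDRAFT_154976) had 17.3, 12.5 and 11.8 CPM at 48 h and 8.89, 8.69 and 6.59 CPM in control (0.78). UGP2 (CHLREDRAFT_157049), which makes UDP-glucose, was not called, with 249, 230 and 292 CPM at 48 h and 298, 297 and 290 CPM in control (−0.20, adjusted p = 0.470).

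The stress proteins, a group that includes the glutathione S transferase described above, had 4 of 4 genes upregulated, beside 26.9% of all genes. They rose by about the same amount, with log2 fold changes of 0.74 to 1.02. P5CS2 (CHLREDRAFT_130812), an enzyme of the synthesis of proline, another compatible solute, had 232, 219 and 274 CPM at 48 h and 136, 136 and 132 CPM in control (0.85, adjusted p = 5.99e-05). BAX inhibitor 1 (CHLREDRAFT_139760), a membrane protein that restrains cell death in plants, had 79.1, 71.7 and 86.8 CPM at 48 h and 43.3, 40.8 and 33.4 CPM in control (1.02). HSP70B (CHLREDRAFT_126835), a chaperone of the chloroplast, had 188, 177 and 210 CPM at 48 h and 76.5, 110 and 157 CPM in control. The highest control library of HSP70B came close to the lowest 48 h library (log2 fold change 0.74, SE 0.19, adjusted p = 0.00172).

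The 2 BiP genes, chaperones of the endoplasmic reticulum, were called in opposite directions, but neither call held under every alternative. CHLREDRAFT_133859 had 112, 117 and 121 CPM at 48 h and 192, 177 and 165 CPM in control (−0.61, adjusted p = 0.0011), a call that was lost with total counts as the scaling (−0.26, adjusted p = 0.221). CHLREDRAFT_133650 had 4.19, 3.51 and 2.66 CPM at 48 h and 2.19, 0.650 and 3.13 CPM in control, and its groups overlapped. Its log2 fold change of 0.81 (adjusted p = 0.0426) did not pass without 48 h replicate 1 or 2 or control replicate 1 or 2 (adjusted p 0.0507 to 0.272). Nor did CHLREDRAFT_133650 pass with RLE size factors (adjusted p = 0.0646) or at least 10 counts in every library (adjusted p = 0.0512). In a fit of only the 6 libraries compared its adjusted p was 0.194. Of 2 lipid enzymes, UDP-sulfoquinovose synthase (CHLREDRAFT_27658), which makes the head group of a chloroplast sulfolipid, had 199, 196 and 212 CPM at 48 h and 177, 129 and 124 CPM in control (0.50, adjusted p = 0.00977). The biotin carboxylase CHLREDRAFT_122970, part of the first enzyme of fatty acid synthesis, had 53.7, 47.4 and 57.1 CPM at 48 h and 60.1, 67.8 and 115 CPM in control. It was downregulated by the test (−0.62, adjusted p = 0.0265), but not without 48 h replicate 1 or 2 or control replicate 3 (adjusted p 0.0575 to 0.385, with −0.25 when the last was left out) or with total counts as the scaling (−0.30, adjusted p = 0.381).

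The study designed qRT-PCR primers for several of these genes, and the pairs below show the oligos by which 2 genes that rose and 2 that fell here were also measured (5′ to 3′, all bases in lower case).
P5CS2 forward: ggtttgggaagtgaagtgcc
P5CS2 reverse: acgctacctctacaccccac
RUBY forward: ggaatgtacccctactacct
RUBY reverse: gtcagtttgattcggttgac
OEE2 forward: cgccttcgactccttcacc
OEE2 reverse: cctgctccatgctttccct
Catalase forward: tgttcatgacgccctcagac
Catalase reverse: gctccacaaactcctcctcc
The reference gene of that assay, EF1ALPHA (CHLREDRAFT_132905), a translation elongation factor, had 8161, 7288 and 9336 CPM at 48 h and 6979, 6878 and 6798 CPM in control. All its 48 h libraries lay above all control libraries, and it was not called (log2 fold change 0.26, adjusted p = 0.471), but it was called with total counts as the scaling (0.60, adjusted p = 0.0019).

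Transcription factors are proteins that bind DNA near genes and set their transcription. The study lists 113 by similarity to Arabidopsis thaliana and chose them partly by their expression in these samples, so the counts describe its list. Of the 112 tested, 51 were upregulated and 23 downregulated at 48 h, with a median log2 fold change of 0.55 against 0.03 over all genes. These are 45.5% and 20.5% of the list, beside 26.9% and 24.3% of all genes. With total counts as the scaling the counts were 58 and 12, and without control replicate 3 they were 47 and 15. By family, 12 of 19 C3H genes, 9 of 18 MYB genes, 4 of 5 C2H2 genes, 4 of 5 GARP genes and 3 of 3 bHLH genes were upregulated. Rises also outnumbered falls in SBP, with 4 of 8 upregulated and 0 downregulated, and in RWP, with 4 of 10 upregulated and 1 downregulated. No AP2/ERF gene was upregulated and 3 of 10 were downregulated by edgeR, while 1 was higher by DESeq2 and 1 at an unadjusted p below 0.05. Of 3 PLATZ genes, 0 were upregulated as well and 1 was downregulated. In 58 of the genes every 48 h library lay above every control library, and in 26 below, beside 32.8% and 29.9% of all genes. Of 7 transcription factors that the study also names singly, the MYB88 homolog and a WRKY gene were upregulated and 5 were not called.

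**Figure D3:**
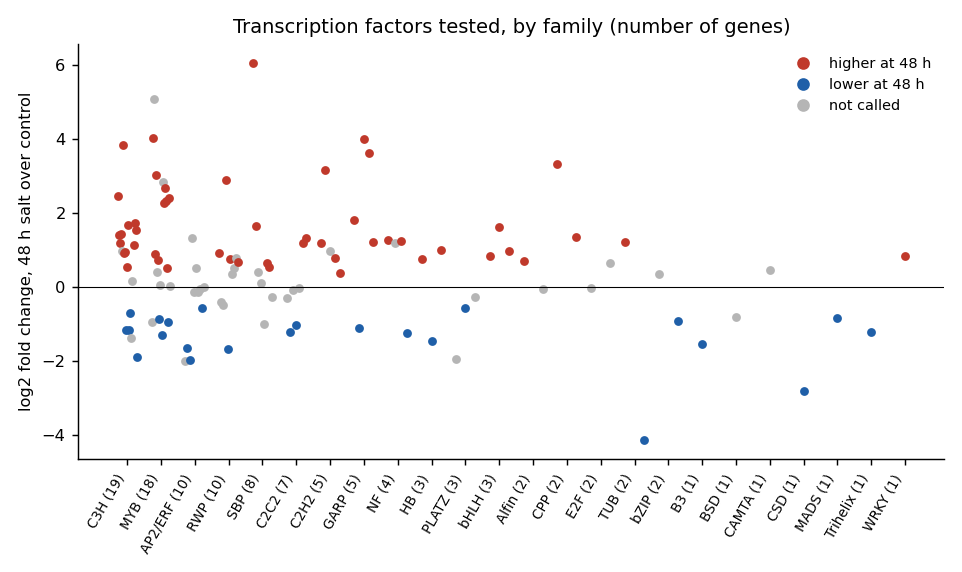
Log2 fold change at 48 h over control of 112 transcription factors, 1 point per gene, by family with the number of genes in brackets. Red points are upregulated, blue points downregulated and grey points not called. C3H, MYB, RWP, SBP, C2H2, GARP, NF, HB, bHLH, CPP, Alfin and WRKY hold more red than blue points. AP2/ERF has no red point, and neither do PLATZ, E2F, bZIP, B3, BSD, CAMTA, CSD, MADS and Trihelix. The SBP gene at 6.07 had no counts in control, so its height is set by the fit.

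The MYB family is known in plants from the control of cell fate and stress responses. CHLREDRAFT_107210 had 29.2, 29.3 and 25.6 CPM at 48 h and 0.913, 2.01 and 2.15 CPM in control, 16.5-fold higher (log2 fold change 4.05, SE 0.20, adjusted p = 6.58e-15). The homolog of MYB88, CHLREDRAFT_205725, had 20.3, 18.0 and 18.7 CPM at 48 h and 3.71, 3.25 and 4.44 CPM in control (2.32, SE 0.17, adjusted p = 7.55e-12). In both genes every 48 h library lay several times above every control library. A MYB gene among the transcripts assembled by the authors fell, with 71.0, 86.8 and 87.1 CPM at 48 h and 154, 197 and 118 CPM in control (−0.94), so the family did not move as one.

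RWP genes include regulators of the nitrogen response and of gametes in green algae. CHLREDRAFT_195840 had 26.99, 26.7 and 23.2 CPM at 48 h and 3.11, 2.48 and 4.70 CPM in control (2.90, adjusted p = 9.05e-10), while CHLREDRAFT_195860 of the same family had 14.7, 13.2 and 17.9 CPM at 48 h and 59.4, 49.5 and 36.2 CPM in control (−1.66, adjusted p = 1.27e-07). The 2 genes thus moved in opposite directions. The WRKY gene CHLREDRAFT_205718, of a family that acts in plant stress and defence, had 55.5, 60.7 and 60.9 CPM at 48 h and 36.0, 33.8 and 29.0 CPM in control (0.84). A bHLH gene among the transcripts assembled by the authors had 188, 176 and 243 CPM at 48 h and 58.4, 80.1 and 56.7 CPM in control (1.64, adjusted p = 3.61e-08). In 2 more downregulated genes all 48 h libraries lay below all control libraries. The AP2/ERF gene CHLREDRAFT_148404 had 26.8, 25.3 and 26.9 CPM at 48 h and 101, 94.9 and 51.1 CPM in control (−1.65, adjusted p = 0.000299). The one cold shock domain gene, CHLREDRAFT_126810, had 67.4, 71.1 and 73.8 CPM at 48 h and 608, 431 and 446 CPM in control (−2.81, adjusted p = 3.68e-13).

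Some genes had next to no counts in one group. In 24 genes no 48 h library held more than 3 counts while every control library held at least 50. The extreme was CHLREDRAFT_192728, with 0, 0 and 0 counts at 48 h and 7121, 6668 and 6647 counts in control, at least 8652-fold lower at 48 h when 3 counts over the 48 h group are taken as the floor. CHLREDRAFT_150144 had 0, 2 and 0 counts at 48 h and 1599, 1332 and 1303 counts in control, a ratio of sums of 2689 (95% counting interval 744 to 22210). Intervals and floors here cover counting error only. In 13 of the 24 genes no library of any of the 8 salt times held more than 20 counts, so these were near 0 from 2 h on. The files and the paper give neither a name nor a role to these identifiers.

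In 17 genes no control library held more than 3 counts while every 48 h library held at least 50. CHLREDRAFT_149776 had 135, 176 and 153 counts at 48 h and 0, 0 and 0 counts in control, at least 122-fold higher. Genes with a few counts in control gave larger absolute levels. CHLREDRAFT_191480 had 1515, 1739 and 1687 counts at 48 h and 15, 5 and 18 counts in control (72.9, 78.2 and 89.8 CPM against 0.913, 0.295 and 1.17 CPM), 102-fold higher (log2 fold change 6.67, SE 0.29, adjusted p = 7.77e-16).

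Of those 17 genes, 7 carry identifiers that begin with DAA, a class of 69 that the files do not pair with names. Of the 67 tested DAA identifiers, 58 were upregulated and none was downregulated by edgeR or DESeq2, and 0 were lower at an unadjusted p below 0.05. Beside this, 26.9% of all genes were upregulated. The class held few counts in control, which left little room to call a fall, so the absence of falls says little. With at least 10 counts required in every library 7 were upregulated, since most were then not tested. Together the class had 12042, 5519 and 4311 counts at 48 h and 414, 467 and 451 counts in control. This was 0.0617%, 0.0283% and 0.0230% of the counts at 48 h and 0.00184%, 0.00249% and 0.00263% in control, a ratio of means of 16.2, or 11.1 without 48 h replicate 1. The groups did not overlap, which gives the smallest p an exact permutation test of 3 against 3 allows (two-sided p = 0.1). The median log2 fold change of the class was 5.06 in the fit, or 4.27 with the 16 identifiers that had no count in control at their lower bound. DAA00908 had 1441, 712 and 493 counts at 48 h and 0, 2 and 7 counts in control (7.79, SE 0.76, adjusted p = 1.79e-09). The first 48 h library had the most counts in it and in the class.

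**Figure D4:**
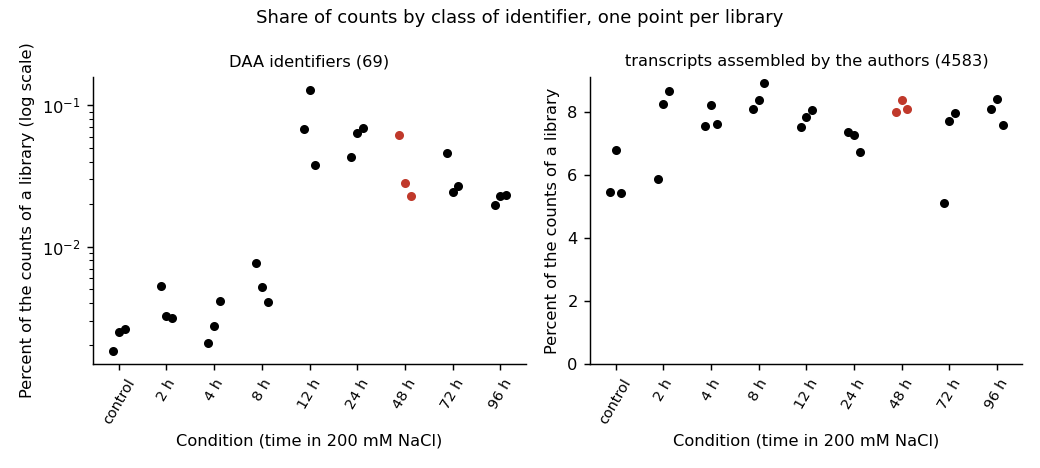
Percent of the counts of each library held by the 69 DAA identifiers (left, log scale) and by the 4583 transcripts assembled by the authors (right), with 1 point per library, control first and then time in 200 mM NaCl, 48 h in red. On the left, the 48 h points lie at 0.0230% to 0.0617%, above the control points at 0.00184% to 0.00263%. On the right, they lie at 7.99% to 8.38%, above the control points at 5.44% to 6.78%.

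The transcripts that the authors assembled themselves held 7.99%, 8.38% and 8.08% of the counts at 48 h and 5.45%, 6.78% and 5.44% in control, again without overlap (exact permutation p = 0.1, two-sided). They were assembled from the reads of these same samples, most of which were in salt. Transcripts present mainly in salt could thus enter the class more easily, so the higher share is not independent evidence of a rise. Of 3358 tested, 848 were upregulated and 638 downregulated (25.3% and 19.0%, beside 26.9% and 24.3% of all genes). With total counts as the scaling the counts were 1028 and 361. One of them, among the 10 largest increases of all genes, had 413, 438 and 423 CPM at 48 h and 9.50, 6.97 and 3.0004 CPM in control (6.03, SE 0.26, adjusted p = 5.77e-16). The 8 AAB identifiers were split, with 3 upregulated and 3 downregulated, and the 32 tested ENSRNA identifiers had 7 upregulated and 6 downregulated. Of 10 tested EPCRG identifiers, 4 were upregulated and none was downregulated by edgeR or DESeq2 or lower at an unadjusted p below 0.05. Taking in each library its 50 genes with the most reads, they held 26.9%, 25.2% and 27.8% of the counts at 48 h and 28.9%, 23.2% and 22.6% in control, and the groups overlapped (exact permutation p = 0.4, two-sided).

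The overlap of the genes at the top of expression depended on the scale. By CPM, 5 genes were among the 10 highest both at 48 h and in control. By deposited FPKM, which divides by gene length, 9 genes were, and none of these 9 was called by edgeR or DESeq2 or had an unadjusted p below 0.05. Beside this, 51.2% of all genes were called, and of the highest 1645 genes by CPM 44.98% were downregulated and 22.5% upregulated. Picking genes that rank high in both groups favours genes that changed little, so the lack of calls says little. One of these 9, CHLREDRAFT_195605, had 10148, 8116 and 11266 CPM at 48 h and 16730, 10219 and 8818 CPM in control (−0.28, adjusted p = 0.511). The remaining gene of the control list, CHLREDRAFT_126163, was lower, with 3210, 2052 and 3280 CPM at 48 h and 6781, 5700 and 8105 CPM in control (−1.27, adjusted p = 0.00345).

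To see what marked 48 h within the salt treatment, it was set against 24 h and 72 h in the same fit. Against 24 h, 1055 genes were higher at 48 h (6.42% of those tested) and 1226 lower (7.46%), together 13.9%. With total counts as the scaling 1917 were higher and 452 lower, so the balance of directions turned, and without 48 h replicate 1 or 2 the higher genes numbered 653 or 662. Against 72 h, 219 were higher (1.33%) and 275 lower (1.67%). Replicates were further apart at 24 h (coefficient of variation 0.319) and 72 h (0.391) than at 48 h. In a fit of only the 6 libraries compared, 16 genes were higher and 45 lower than at 72 h, and without 72 h replicate 1 the counts were 55 and 111. Most calls against control were not called against 24 h: 84.5% of the upregulated and 75.9% of the downregulated genes, which does not show that the levels at 48 h and 24 h were equal. Both comparisons share the 48 h libraries.

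Most photosystem genes named by the study were lower at 48 h than at the times on either side. The assembly factor of photosystem II was not, and stood above 24 h by a log2 difference of 0.53. Of the 10 photosynthesis genes, 6 were lower at 48 h than at 24 h and 72 h both, and these were the 2 antenna genes, subunit III of photosystem I and the 3 oxygen-evolving enhancers. OEE1 had 731, 734 and 756 CPM at 48 h, against 1497, 1599 and 1762 CPM at 24 h (log2 difference −1.13, adjusted p = 3.46e-06). Against 1512, 1249 and 1099 CPM at 72 h, its log2 difference was −0.80 (adjusted p = 0.00207). The other 5 had log2 differences of −0.70 to −1.19 from 24 h and of −0.74 to −1.05 from 72 h. In none of the 6 genes did the 48 h libraries overlap those of 24 h or 72 h. These genes were picked by their calls, and the share of all genes without overlap was not counted for these times. With total counts as the scaling 5 of the 6 passed at each time, and in a fit of only the 6 libraries compared 2 of the 6 passed against 72 h. With 1 library left out, 5 or 6 passed against 24 h and 4 to 6 against 72 h, with 4 when 48 h replicate 1, 48 h replicate 2 or 72 h replicate 1 was left out. They were not at their lowest at 48 h: OEE1 averaged 193, 139 and 282 CPM at 2, 4 and 8 h and 741 CPM at 48 h, and the means of all 6 were lower at these 3 times than at 48 h. CHLREDRAFT_187025 averaged 79.4 CPM at 12 h and 78.8 CPM at 48 h. The envelope protein induced by low CO2, CHLREDRAFT_189430, behaved differently, with 777, 643 and 787 CPM at 48 h and 122, 140 and 150 CPM at 24 h (2.42, SE 0.28, adjusted p = 4.22e-07).

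**Figure D5:**
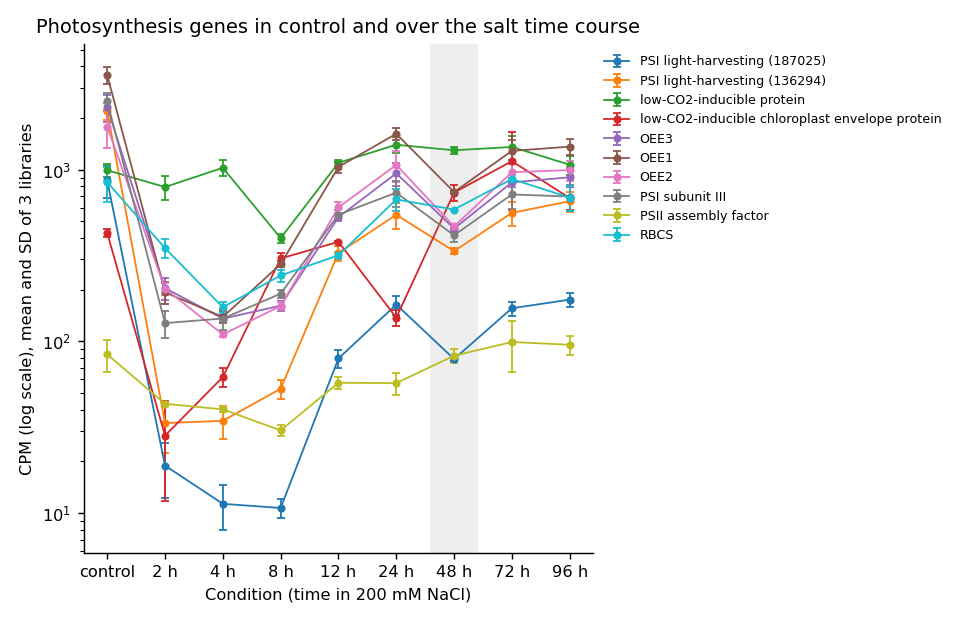
Mean CPM (log scale) with SD over 3 libraries of 10 photosynthesis genes in control and at each time in 200 mM NaCl, with 48 h shaded. The antenna, subunit III and OEE lines dip at 48 h between 24 h and 72 h. The mean of OEE1 is 3560 CPM in control, 1619 CPM at 24 h, 741 CPM at 48 h and 1287 CPM at 72 h.

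Glycerol synthesis was above 24 h in 1 of the 2 strongly raised genes. CHLREDRAFT_146945 had 686, 603 and 823 CPM at 48 h and 309, 388 and 382 CPM at 24 h (0.97, adjusted p = 0.000844), while CHLREDRAFT_146946 had 305, 243 and 194 CPM at 24 h and was not called against its 305, 300 and 251 CPM at 48 h (adjusted p = 0.676). RUBY was higher than at 24 h (0.61, adjusted p = 0.0034), where it had 136, 144 and 125 CPM. Across all genes, 34 were upregulated against control and higher than at 24 h and 72 h both, and 84 were downregulated and lower than at both. The steepest fall among these with at least 100 counts on average was in a transcript assembled by the authors. It had 0.337, 0.494 and 0.266 CPM at 48 h and 112, 106 and 140 CPM in control, with 3.89 to 5.57 CPM at 24 h and 1.21 to 1.499 CPM at 72 h. CHLREDRAFT_185533 had 674, 745 and 712 counts at 48 h and 121987, 97499 and 115810 counts in control. In CPM it was 32.4, 33.5 and 37.9 at 48 h and 7429, 5761 and 7554 in control, a 199.8-fold lower level (log2 fold change −7.64, SE 0.42, adjusted p = 3.1e-14). It was lower than at 24 h by a log2 difference of −1.91 and lower than at 72 h by one of −2.06. The steepest rise among the 34 was in another assembled transcript, with 219, 246 and 256 CPM at 48 h and 33.1, 35.2 and 30.4 CPM in control (2.87).

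The DEGs were spread over the genome. In the reference annotation (assembly Chlamydomonas_reinhardtii_v5.5) 11652 of the tested genes were found, and the share upregulated ranged between 22.8% and 31.7% over 17 chromosomes and the share downregulated between 22.1% and 30.99%. Counting neighbours that were called in 1 direction with a log2 fold change beyond 1, the longest runs held 5 genes, of which there were 3 upward and 2 downward, and 10 runs held 4. The downward run on chromosome 12 held CHLREDRAFT_165416, with 104, 100.3 and 123 CPM at 48 h and 1383, 956 and 1073 CPM in control (−3.38, adjusted p = 4.92e-15). Its 4 neighbours in the run had log2 fold changes of −1.40 to −2.52. An upward run on chromosome 9 held CHLREDRAFT_148922, with 295, 288 and 313 CPM at 48 h and 124, 95.2 and 83.9 CPM in control (1.56). How often such runs arise with no link between neighbours was not tested.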

How the data were processed

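The gene counts were made and deposited by the authors as whole numbers without normalization: reads were filtered, aligned with HISAT2 2.0.5 (per the labels), transcripts were assembled with StringTie 1.3.3b, and reads per gene were counted with featureCounts. The FPKM values, also deposited by the authors, come from these counts and gene lengths, and over 6110 genes they were scaled between libraries by median-of-ratios factors. The genome and gene models came from Ensembl Plants (per the paper's methods), but the name of the assembly, the strand setting and the treatment of multiply mapped reads are not given in the sources used here. Fold changes are therefore uncertain for genes with near copies or overlapping neighbours.

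DEGs were called on the counts with edgeR 4.0.16 in R 4.3.3. filterByExpr kept 16443 genes, TMM set the scaling, and the quasi-likelihood fit took all 27 libraries with 1 coefficient per condition (9 in all). Total counts ranged from 17126549 to 22528201 over the 6 libraries compared. The test was run on simulated data with 200 genes changed, far fewer than were called in the real data. It called 35 of 95 genes changed by 1 on the log2 scale and 79 of 103 changed by 2. Of 16045 unchanged genes it called 7. The simulated spread of a gene was the same in all groups, so these rates may not hold for the real comparison. SE values are the absolute log2 fold change over the square root of F. Shares of counts were compared by exact permutation with scipy 1.17.1 (Python 3.11.15, pandas 2.3.3, numpy 2.4.6), and matplotlib 3.10.9 drew the figures.

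Genes named are 41 that the paper names, members of transcription factor families by a fixed rule, the DEGs with the largest changes among those with a mean of at least 100 counts and no overlap, the same for genes also called against 24 h and 72 h, and the 10 highest by FPKM. Of unnamed identifiers only a few per rule are printed, because the reference table (12541 of 19267 identifiers matched) holds no symbols. Pathway lists written by symbol, and the markers of gametes and zygotes, therefore matched nothing and were void. CHLREDRAFT_126810, genes in runs, and the transcription factors that differed from 24 h and 72 h both were chosen after their values were seen. The members and lists were chosen with earlier results of these data known.

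Alternatives were DESeq2 1.42.0, RLE size factors, total counts, no filter, at least 10 counts in every library, a block for the replicate number, a fit of the 6 libraries alone, a minimum absolute log2 fold change of 1, and each library left out. A fit without the first libraries of 2 h and 72 h was added after seeing the data. The authors' lists of DEGs, growth data and qRT-PCR values were not used here.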

Additional observations from a re-analysis of the deposited data

Results flagged for a closer look

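Results are listed here because the effect at 48 h differed, by edgeR's test of the difference at an adjusted p below 0.05, from the effect at 24 h or 72 h against the same control. With 3 libraries per group, no library was tested for standing apart from its group.

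The log2 difference of 48 h from 24 h was −1.06 in CHLREDRAFT_187025, −0.70 in CHLREDRAFT_136294, −1.07 in OEE3 (CHLREDRAFT_153656), −1.13 in OEE1 (CHLREDRAFT_130316), −1.19 in OEE2 (CHLREDRAFT_33411) and −0.82 in photosystem I subunit III (CHLREDRAFT_130914). In the same order, the log2 difference from 72 h was −0.98, −0.74, −0.89, −0.80, −1.05 and −0.79. These 6 photosystem genes, listed because they passed this test, were thus lower at 48 h than at 24 h and 72 h. RBCS (CHLREDRAFT_82986) was below 72 h by a log2 difference of −0.59. CHLREDRAFT_189430, the envelope protein induced by low CO2, was above 24 h by 2.42, and the photosystem II assembly factor (CHLREDRAFT_112806) by 0.53.

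Catalase (CHLREDRAFT_190083) and ascorbate peroxidase (CHLREDRAFT_192806) were below 24 h by log2 differences of −0.60 and −0.64, and glutathione S transferase (CHLREDRAFT_195543) above it by 0.40. The BiP genes CHLREDRAFT_133650 and CHLREDRAFT_133859 were above 24 h by 1.10 and 0.53. Among enzymes of sugars, glycerol and lipids, the differences from 24 h were 0.97 in CHLREDRAFT_146945, 0.54 in UDP-glucose 6-dehydrogenase (CHLREDRAFT_185081), 0.61 in RUBY (CHLREDRAFT_196816) and 0.46 in UDP-sulfoquinovose synthase (CHLREDRAFT_27658). UGT-80 (CHLREDRAFT_154976) was above 72 h by 0.96 and AMY1 (CHLREDRAFT_173725) by 0.86.

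Among transcription factors, the C2C2 gene CHLREDRAFT_205871 was below 24 h by −0.48, and 3 genes differed from both times in 1 direction. The cold shock domain gene CHLREDRAFT_126810 had log2 differences of −1.76 from 24 h and −0.70 from 72 h, the SBP gene CHLREDRAFT_191464 of 0.42 and 0.49, and the bHLH gene assembled by the authors of 0.54 and 0.98. Among identifiers without a name, CHLREDRAFT_191480 was above 24 h by 1.88, a transcript assembled by the authors was above 24 h by 0.57 and 72 h by 0.55, and CHLREDRAFT_116959 was above them by 0.95 and 1.14. The log2 difference of a second assembled transcript was −3.66 from 24 h and −1.88 from 72 h, and that of CHLREDRAFT_185533 was −1.91 and −2.06.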

How the results depend on the processing

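The numbers of DEGs against control kept within 1.5 times of 4431 up and 3995 down under every alternative but 1: total counts as the scaling gave 2299 down. Without 1 library they ranged between 3989 and 4336 up and between 3297 and 3606 down. With total counts, 12 transcription factors and 361 transcripts assembled by the authors were downregulated, 1917 genes were higher and 452 lower than at 24 h, and 71 were higher and 76 lower than at 72 h. This scaling moved the median log2 fold change of all genes by about as much as it moved 1 named transcript assembled by the authors, which was not called at −0.04 and was called at 0.3135 (adjusted p = 0.0429). A minimum absolute log2 fold change of 1 left 561 genes higher and 474 lower than at 24 h, 64 and 80 for 72 h, 32 upregulated transcription factors, and 8 upregulated and 7 downregulated of the genes that the study names. Requiring 10 counts in every library left 7 upregulated DAA identifiers, since most were not tested. DESeq2 called 414 genes higher and 654 lower than at 72 h, and a fit of only the 6 libraries compared 16 and 45. Leaving out the first libraries of 2 h and 72 h, chosen after seeing the data, gave 1722 genes higher than at 24 h and 127 higher than at 72 h. The causes were not tested.

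Without 1 library, between 653 and 1223 genes were higher and between 831 and 1228 lower than at 24 h, with 653 without 48 h replicate 1 and 662 without 48 h replicate 2. Against 72 h the ranges were 55 to 472 and 94 to 512. The lowest were 55 (72 h replicate 1), 63 (48 h replicate 3), 78 (48 h replicate 1) and 91 (48 h replicate 2) higher, and 94 (48 h replicate 1), 99 (48 h replicate 2), 111 (72 h replicate 1) and 140 (48 h replicate 3) lower, and the highest came without 72 h replicate 3. Of the transcription factors, 39 to 47 were upregulated and 15 to 22 downregulated, with 15 without control replicate 3. Where a group kept 2 libraries, the spread came from all conditions.

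The replicate numbers did not pair the samples: deviations of libraries with the same number in 48 h and control had correlations of −0.08, −0.04 and −0.24. With the replicate number as a block, 4398 genes were up and 3926 down, and the call of 0 of the 145 named genes changed. Of the 115 of these that were called, 97 were called in the same direction under every alternative that gave a value. In the lowest 1645 genes, under 0.833 CPM, depth limits which changes can be called.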
